A study of Mus musculus with 8 samples.

Results

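MBL2 cells treated with talazoparib and romidepsin together were compared with untreated MBL2 cells across all measured genes. The comparison used 4 of the 8 libraries of the study, the 2 of the combination and the 2 controls, taken by their sample titles. MBL2 is a mouse T-cell lymphoma line that Moloney murine leukaemia virus (MuLV) induced in the C57BL/6 strain. All groups were cultures of this 1 line in RPMI-C medium. The 4 groups were the untreated control, romidepsin alone, talazoparib alone and both drugs, each given once, with RNA taken after 24 h. The sources used here give neither the doses nor whether libraries of the same group were grown apart, and if they were not, the p-values measure only a technical spread.

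Talazoparib inhibits the poly(ADP-ribose) polymerases PARP1 and PARP2, which mark DNA breaks, and traps them on DNA, so that replication forks collide with them and breaks arise. Such damage activates the transcription factor p53, whose targets halt the cell cycle, repair DNA or lead to apoptosis. Romidepsin, a natural cyclic peptide used against T-cell lymphoma, inhibits the class I histone deacetylases, which remove acetyl groups from histones. In cells these inhibitors are known to raise acetylated histones and to alter the transcription of many genes.

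Levels are read counts in CPM, scaled to a common library size with TMM factors, and changes are log2 ratios of the combination to the control with the standard error of the fit. A gene is said to have risen or fallen where edgeR's quasi-likelihood test over all 8 libraries gave an adjusted p under 0.05 (Benjamini-Hochberg, 11934 genes tested). The libraries held 28419156 to 38913292 counted reads. All 12260 genes of the table had a read in every library, and genes without one somewhere are not analysed here. The 12 listed T-cell markers were all measured, and their summed level was 4072 to 4267 CPM in the controls and 3888 to 3913 CPM in the combination. The first principal component held 50.3% of the variance and separated the combination libraries (24.2 and 29.6) from the controls (-29.5 and -21.6). On it the talazoparib libraries lay on the side of the combination (15.1 and 27.9) and the romidepsin libraries on that of the controls (-19.2 and -26.5). In these bulk samples a change in RNA per cell and a change in the number of cells of a kind cannot be told apart.

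The combination changed 2091 genes against control, 17.5% of those tested. Of these, 1222 rose (10.2% of all tested genes) and 869 fell (7.28%), so that 58.4% of the calls were rises. Called changes of at least 2-fold were nearly all rises, although the lowest log2 value of any tested gene was -5.51 and the highest 4.38. At least 2-fold changes were called for 481 rising and 32 falling genes, and the median log2 change was 0.84 among the rises and -0.47 among the falls. Both combination libraries lay above both controls in 33.7% of tested genes and below both in 32.5%. Over all tested genes the median change was 0.00, with a median standard error of 0.14. Without a scaling factor the median of all genes moved to 0.11, and 1743 genes rose and 422 fell, 80.5% of calls being rises. Upper-quartile scaling gave 71.5% rises. With 2 libraries a group the number of calls rested on each of the 4 libraries compared. It was 305 without control 1, 470 without control 2, 618 without combination 1 and 504 without combination 2.

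**Figure D1:**
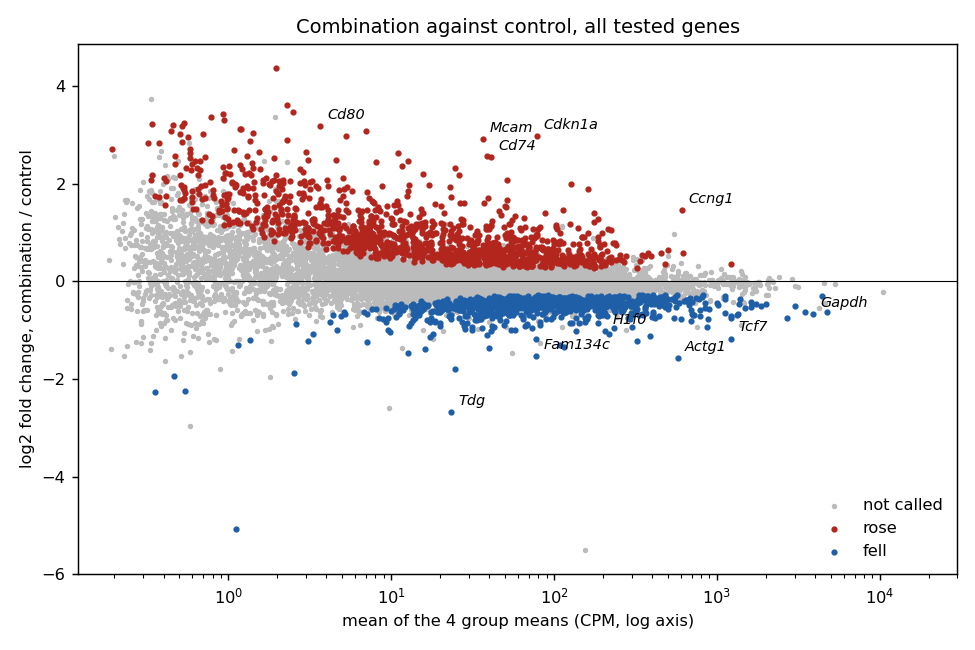
Each point is 1 of the 11934 tested genes, with the mean level of the 4 groups in CPM on a log axis and the log2 ratio of combination to control on the vertical axis. Red points rose (1222 genes) and blue points fell (869 genes). Of the called changes of at least 2-fold, 481 lie above the zero line and 32 below it.

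Cd80, Cdkn1a, Mcam and Cd74 were among the largest rises. Among called genes with separated libraries and a mean of at least 2 FPKM (fragments scaled to transcript length and library size) in the higher group, the 12 largest rises were Cd80 (3.18 ± 0.25), Ces2e (3.09 ± 0.28), Cdkn1a (2.99 ± 0.14), Rab44 (2.98 ± 0.21), Mcam (2.92 ± 0.15), Ccdc153 (2.64 ± 0.15), Ckmt1 (2.57 ± 0.16), Cd74 (2.55 ± 0.16), Ak1 (2.49 ± 0.25), Des (2.46 ± 0.23), Itgam (2.36 ± 0.19) and Spib (2.33 ± 0.15), all log2. Cd80, which encodes a ligand of CD28 and CTLA-4, lay at 0.808 and 0.565 CPM in the controls and 5.69 and 6.99 CPM in the combination. Cdkn1a, which encodes the cell-cycle inhibitor p21, lay at 19.3 and 17.7 CPM in the controls and 146 and 148 CPM in the combination. The 2 groups were far apart for both genes, and the combination libraries of Cdkn1a were nearly equal. Mcam, encoding the adhesion molecule CD146, lay at 8.41 and 7.21 CPM in the controls and 63.4 and 55.2 CPM in the combination. Cd74, encoding the invariant chain of MHC class II, lay at 17.1 and 12.7 CPM in the controls and 81.9 and 92.9 CPM in the combination. Adjusted p was 0.000562 for Cd80, 0.000118 for Cdkn1a, 0.000118 for Mcam and 0.000269 for Cd74 (edgeR). Separation of the 2 groups was a condition for this ranking, so it adds no support. The others include Ckmt1, encoding a mitochondrial creatine kinase, Ak1, encoding an adenylate kinase, Des, encoding the muscle intermediate filament desmin, Itgam, encoding the integrin CD11b, and Spib, encoding an ETS-family transcription factor. Rab44 lies near Cdkn1a on chromosome 17, at 29114128 to 29148980 in mm10, with Cdkn1a at 29090979 to 29100722. Ces2e belongs to a family of similar carboxylesterase genes, among which reads can be split in counting. All 12 kept their calls with each library left out in turn.

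The 12 largest falls under the same conditions were Tdg (-2.68 ± 0.68), Hist3h2ba (-1.88 ± 0.48), Trib3 (-1.79 ± 0.46), Actg1 (-1.57 ± 0.28), Fam134c (-1.54 ± 0.11), Gtdc1 (-1.47 ± 0.19), Ankrd49 (-1.39 ± 0.19), Stag1 (-1.37 ± 0.13), Pou2f2 (-1.34 ± 0.18), Dpf2 (-1.29 ± 0.37), Hist2h2be (-1.25 ± 0.31) and Slc39a10 (-1.21 ± 0.20), all log2. Fam134c, also called Retreg3, encodes a receptor for the autophagy of the endoplasmic reticulum and lay at 88.7 and 88.0 CPM in the controls and 33.1 and 27.7 CPM in the combination (adjusted p 0.000445, edgeR). Stag1, which encodes a cohesin subunit, lay at 55.2 and 64.7 CPM in the controls and 21.6 and 24.7 CPM in the combination (adjusted p 0.00123). Pou2f2, encoding the lymphoid transcription factor OCT2, lay at 151 and 173 CPM in the controls and 65.9 and 61.8 CPM in the combination (adjusted p 0.00362). In these 3 genes the libraries within each group lay close together, and separate groups were a condition for the ranking. Tdg, encoding thymine DNA glycosylase, had discordant controls, at 105 and 18.6 CPM in the controls and 12.5 and 6.89 CPM in the combination, so its value rests on control 1. Actg1, which encodes cytoplasmic gamma-actin, lay at 817 and 944 CPM in the controls and 291 and 303 CPM in the combination. Actg1 and the histone genes have near-identical copies, and their counts are uncertain to that extent. Fam134c, Gtdc1, Ankrd49, Stag1 and Pou2f2 kept their calls with each library left out in turn. Tdg lost its call without control 1, romidepsin 1, romidepsin 2, combination 1 or combination 2 (adjusted p 0.0503 to 0.181 by edgeR). Hist3h2ba, Trib3, Dpf2 and Hist2h2be lost their calls without either control or either combination library (adjusted p 0.0602 to 0.195 by edgeR). Actg1 lost its call without control 2, combination 1 or combination 2 (adjusted p 0.0576 to 0.072 by edgeR). Slc39a10 lost its call without combination 2 (adjusted p 0.0626 by edgeR). Over those 8 fits the log2 value of Tdg ran from -3.44 to -0.94.

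**Figure D2:**
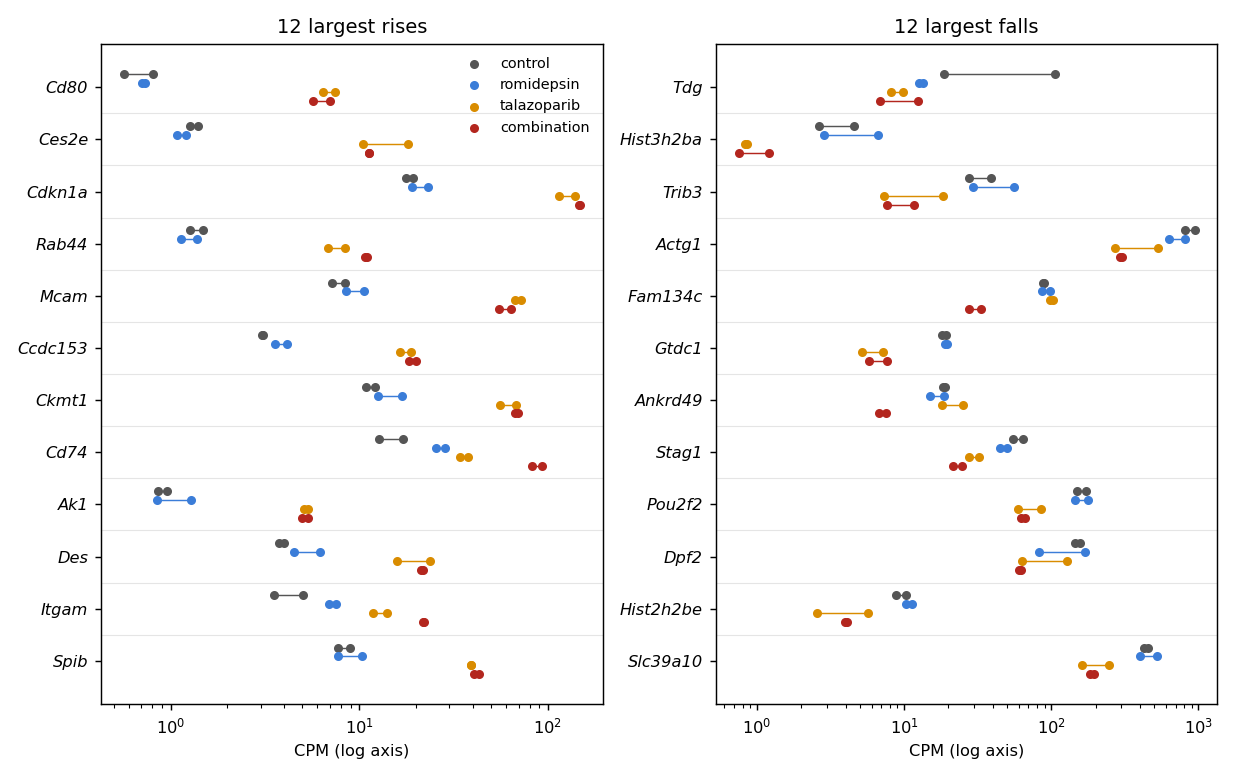
Points are single libraries, 2 in each of the 4 groups, joined by a line, for the 12 largest rises (left) and the 12 largest falls (right), in CPM on a log axis. By the condition for the ranking, the combination (red) and control (grey) points are apart in every gene. For Tdg the controls spread from 18.6 to 105 CPM.

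Many listed targets of p53 rose. Of the first list of p53 targets, 20 of 30 rose (66.7%, against 10.2% of all tested genes), with a median log2 change of 0.86. This list covers arrest, repair and feedback and also holds Cd80, Ptp4a3 and Trim7. Like the other lists, it was chosen with earlier results of these data known, so its share is not independent support. The other 10 were not called. With talazoparib alone 18 of the 30 rose (60%, against 6.43% of all tested genes), with a median of 0.91. The lowest count with 1 library left out was 13 without control 1. Besides Cdkn1a and Cd80 they included Ptp4a3, a phosphatase gene, at 46.9 and 53.2 CPM in the controls and 188 and 212 CPM in the combination (log2 2.0 ± 0.10), and Ccng1, encoding cyclin G1 (log2 1.47 ± 0.10). Ccng1 lay at 317 and 304 CPM in the controls and 926 and 791 CPM in the combination. Mdm2, encoding the ubiquitin ligase that degrades p53, lay at 75.5 and 71.7 CPM in the controls and 124 and 126 CPM in the combination and rose by 0.76 ± 0.11 (adjusted p 0.00501, edgeR). Trp53 itself lay at 128 and 142 CPM in the controls and 102 and 130.1 CPM in the combination, overlapping groups, with a log2 value of -0.22 ± 0.14 and an adjusted p of 0.303. Among the p53 targets of cell death, 6 of 17 rose (35.3%), with a median of 0.35 and a lowest count of 3 without control 1. They were Bax, Bbc3, Fas, Perp, Pidd1 and Tnfrsf18. Bax, encoding a pore-forming protein of the mitochondrial outer membrane, lay at 90.8 and 88.6 CPM in the controls and 184 and 199 CPM in the combination (log2 1.09 ± 0.09, adjusted p 0.00059). The death receptor gene Fas rose by 1.04 ± 0.12, and Pidd1, encoding a scaffold that activates caspase-2, by 1.56 ± 0.21. Cd80, Cdkn1a, Ptp4a3, Bax, Fas, Pidd1, Ccng1 and Mdm2 kept their calls with each library left out in turn. Bbc3 and Tnfrsf18 each lost theirs without either control or either combination library. Perp lost its call without any 1 control, romidepsin or combination library (adjusted p 0.0605 to 0.235 by edgeR). Rps27l lost its call without either control or either combination library (adjusted p 0.0572 to 0.0766 by edgeR).

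Of 9 tested anti-apoptotic genes, Mcl1 rose (log2 0.27 ± 0.08, adjusted p 0.0475, edgeR) and the others were not called. Of 8 CDK inhibitor genes, Cdkn1a and Cdkn2a rose, Cdkn2a from a low level, with 0.835 and 1.36 CPM in the controls and 3.37 and 2.96 CPM in the combination (log2 1.54 ± 0.33). Ccnd3, encoding the cyclin D3 of T-cell progenitors, lay at 528 and 466 CPM in the controls and 760.0 and 720.3 CPM in the combination and rose by 0.57 ± 0.12. Under the conditions set for the 12 largest rises, the largest gains in mean FPKM were of Ly6a, Perp, Rps27l, Ccng1, Ccnd3 and Bax. Of these 6, 4 are known p53 targets. Ly6a, which encodes the surface antigen Sca-1, lay at 412 and 398 CPM in the controls and 608 and 663 CPM in the combination (log2 0.65 ± 0.09, adjusted p 0.00472). Ly6a kept its call with each library left out in turn. Mcl1 lost its call without any 1 control, romidepsin or combination library (adjusted p 0.0717 to 0.237 by edgeR). Cdkn2a and Ccnd3 lost their calls without either control or either combination library (adjusted p 0.0507 to 0.136 by edgeR).

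Interferon-stimulated genes, which interferon switches on through a complex of transcription factors and whose products restrict viruses, rose as a group. Of the listed members, 22 of 38 rose (57.9%, against 10.2% of all tested genes), 1 fell, and the median log2 change was 0.44. The lowest count of rises with 1 library left out was 5 without control 1. The interferon-stimulated response element was searched in RefSeq promoters as GAAA, any 2 bases and GAAA again, on both strands, in windows of 250 bases before to 50 bases after each gene's start (GRCm38.p6, the mm10 build). Of the 9536 tested genes with such a promoter, 358 held it (3.75%). Of the list's 28 members with a promoter, 14 held it (50%), and of the 17 risen ones, 11 (64.7%). The list was chosen as genes that interferon switches on, so its high share describes the list and is no evidence on the combination. Overlapping matches in 1 promoter were counted as 1 promoter. The promoters of Ifit1, Ifit3, Rsad2 and Isg15, chosen after their values were seen, show the element in capitals, on the gene's strand from 5′ to 3′, each of 300 bases. They lie at chr19:34640639-34640938 on the plus strand, chr19:34583279-34583578 on the plus strand, chr12:26456403-26456702 on the minus strand and chr4:156200769-156201068 on the minus strand.
Ifit1: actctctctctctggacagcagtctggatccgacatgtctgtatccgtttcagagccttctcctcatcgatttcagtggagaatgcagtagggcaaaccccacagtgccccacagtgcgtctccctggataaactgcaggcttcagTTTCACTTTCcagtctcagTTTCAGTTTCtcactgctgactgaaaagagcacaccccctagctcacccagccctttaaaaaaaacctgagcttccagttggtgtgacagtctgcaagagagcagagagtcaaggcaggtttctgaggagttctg
Ifit3: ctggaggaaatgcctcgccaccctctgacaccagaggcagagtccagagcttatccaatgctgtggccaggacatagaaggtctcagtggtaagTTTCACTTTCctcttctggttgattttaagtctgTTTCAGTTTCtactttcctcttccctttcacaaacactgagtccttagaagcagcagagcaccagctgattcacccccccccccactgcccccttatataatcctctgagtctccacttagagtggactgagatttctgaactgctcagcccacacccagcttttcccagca
Rsad2: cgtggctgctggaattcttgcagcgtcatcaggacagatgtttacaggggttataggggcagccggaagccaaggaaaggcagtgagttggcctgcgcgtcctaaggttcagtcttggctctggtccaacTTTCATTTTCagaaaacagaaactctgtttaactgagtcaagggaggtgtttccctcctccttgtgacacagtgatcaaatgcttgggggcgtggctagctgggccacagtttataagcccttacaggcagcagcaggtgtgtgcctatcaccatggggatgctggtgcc
Isg15: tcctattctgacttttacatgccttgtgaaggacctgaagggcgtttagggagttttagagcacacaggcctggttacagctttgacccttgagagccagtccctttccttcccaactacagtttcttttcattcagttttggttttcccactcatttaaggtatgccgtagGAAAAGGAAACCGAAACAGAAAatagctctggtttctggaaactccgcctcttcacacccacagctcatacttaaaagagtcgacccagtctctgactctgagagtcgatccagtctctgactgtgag
Ifit1 held the element at positions -104 and -85 from its start and Ifit3 at -156 and -122, in each case read on the opposite strand. Rsad2 held it once, at -120 on the opposite strand. Isg15 held 3 overlapping matches, starting at -78, -72 and -66 on the gene's strand. A match is a description of these letters and not a measure of binding.

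Among these genes, Ifit1, encoding a protein that binds viral RNA lacking cap methylation, lay at 0.970 and 0.797 CPM in the controls and 3.52 and 3.93 CPM in the combination and rose by 2.06 ± 0.30 (adjusted p 0.00487, edgeR). Ifit3, encoding a partner of IFIT1, lay at 0.458 and 0.531 CPM in the controls and 2.26 and 2.41 CPM in the combination and rose by 2.23 ± 0.37 (adjusted p 0.00758). Isg15, encoding a ubiquitin-like modifier, lay at 4.28 and 4.48 CPM in the controls and 7.16 and 9.20 CPM in the combination and rose by 0.90 ± 0.19 (adjusted p 0.0171). In these 3 genes both combination libraries were above both controls. Rsad2, encoding the antiviral enzyme viperin, lay at 80.6 and 71.7 CPM in the controls and 186 and 158 CPM in the combination and rose by 1.18 ± 0.11 (adjusted p 0.00111). Isg20, encoding an exonuclease, rose by 0.83 ± 0.09 and Gbp2, encoding a guanylate-binding protein, by 0.76 ± 0.09. With talazoparib alone 8 of the list's members rose (21.1%, against 6.43% of all tested genes). The list medians with talazoparib and with romidepsin alone were 0.27 and 0.11. These values share the control libraries with those of the combination. No listed member was called in the combination against talazoparib, and none had a called departure from additivity. Ifit1, Rsad2, Isg20 and Gbp2 kept their calls with each library left out in turn. Ifit3 lost its call without control 1 (adjusted p 0.0719 by edgeR). Isg15 lost its call without control 1, control 2 or combination 2 (adjusted p 0.089 to 0.118 by edgeR).

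Of the genes that sense nucleic acids in the cytosol, 3 of 15 rose and 1 fell. These are 20% and 6.67%, against 10.2% and 7.28% of all tested genes. Ifih1, encoding the RNA sensor MDA5, rose by 0.47 ± 0.11, and Ikbke, encoding a kinase that activates IRF3, by 0.56 ± 0.08. Samhd1, encoding a dNTP hydrolase, rose by 2.30 ± 0.42 from a low level, with 0.269 and 0.465 CPM in the controls and 1.86 and 1.72 CPM in the combination. Rnaseh2b, encoding a subunit of the enzyme that removes RNA from DNA, lay at 45.5 and 47.2 CPM in the controls and 27.7 and 31.7 CPM in the combination (log2 -0.64 ± 0.11, adjusted p 0.00811, edgeR). Of the MHC class II list 2 of 9 members rose (22.2%, against 10.2% of all tested genes). They were Cd74 and Rfxank, the second encoding a subunit of the RFX complex that drives these genes (0.46 ± 0.12). The median of that list was 0.49. Of the 22 genes of MHC class I presentation 1 fell (4.55%, against 7.28% of all tested genes). It was Psmb10, an immunoproteasome subunit gene (-0.47 ± 0.10). The rest were not called, with a list median of -0.13. Ifih1 and Rfxank lost their calls without either control or either combination library (adjusted p 0.077 to 0.167 by edgeR). Ikbke lost its call without control 1 (adjusted p 0.0681 by edgeR). Samhd1 lost its call without control 1, combination 1 or combination 2 (adjusted p 0.0541 to 0.0929 by edgeR). Rnaseh2b and Psmb10 lost their calls without control 1, control 2 or combination 1 (adjusted p 0.0556 to 0.122 by edgeR).

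The genes of the drug targets moved little. Parp1, encoding the main enzyme that talazoparib inhibits, lay at 579.7 and 588 CPM in the controls and 504 and 510.3 CPM in the combination (log2 -0.20 ± 0.07, adjusted p 0.098, edgeR). Parp2 lay at 58.0 and 53.4 CPM in the controls and 43.0 and 49.5 CPM in the combination (log2 -0.27 ± 0.10, adjusted p 0.0994). Neither was called, although the libraries of each gene did not overlap between groups. Of the 20 genes of the PARP family and PARG, Parp10 (0.42 ± 0.11) and Parp14 (0.68 ± 0.19) rose (10%, against 10.2% of all tested genes). Parp14 is also an interferon-stimulated gene. Of the 17 histone deacetylase and sirtuin genes, Hdac2 fell (log2 -0.32 ± 0.08, adjusted p 0.0353), from 154 and 145 CPM in the controls to 117 and 123 CPM in the combination. Hdac1 had a log2 value of 0.24 ± 0.10 (adjusted p 0.155) and Hdac3 of -0.06 ± 0.08 (adjusted p 0.649), neither called. The sign of the Hdac3 value and of the list's median turned without a scaling factor and with limma on FPKM. Parp10 lost its call without any 1 control, romidepsin or combination library (adjusted p 0.0519 to 0.208 by edgeR). Parp14 and Hdac2 lost their calls without either control or either combination library (adjusted p 0.104 to 0.215 by edgeR).

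Of the genes of base excision and single-strand break repair, routes in which PARP1 acts, 7 of 24 fell (29.2%, against 7.28% of all tested genes) and 1 rose, with a median log2 change of -0.11. The lowest count of falls with 1 library left out was 2 without control 1, and with other scalings or limma on FPKM the falls numbered as few as 3 and the median was as high as -0.0039. Those that fell were Lig1, Lig3, Mutyh, Tdg, Tdp1, Tdp2 and Ung. Ung, encoding the uracil glycosylase, lay at 35.4 and 39.8 CPM in the controls and 19.3 and 20.4 CPM in the combination (log2 -0.92 ± 0.10, adjusted p 0.00219, edgeR). Tdp1, encoding the enzyme that releases trapped topoisomerase I from DNA, lay at 59.8 and 59.2 CPM in the controls and 32.5 and 36.8 CPM in the combination (log2 -0.78 ± 0.11, adjusted p 0.00486). Lig1, encoding a DNA ligase, fell by 0.38 on the log2 scale. Mpg, encoding an alkyladenine glycosylase, rose by 0.41 ± 0.10. Of the 35 genes of homologous recombination and the Fanconi pathway, 2 rose and 3 fell, shares of 5.71% and 8.57% close to those of all genes. Bard1, encoding the partner of BRCA1, had a log2 value of -0.54 ± 0.12, Rbbp8, encoding the end-resection factor CtIP, of -0.39 ± 0.09, and Rad54b of -0.46 ± 0.12, all called. Eme1, a nuclease subunit gene, rose by 0.50 ± 0.12 and Fancg by 0.37 ± 0.10. Of 12 genes of non-homologous end joining, Dclre1c, encoding the nuclease Artemis, and Dntt, encoding terminal transferase, rose, by 0.59 ± 0.10 and 0.81 ± 0.18. The medians of the last 2 lists changed sign with the scaling. Ung and Tdp1 kept their calls with each library left out in turn. Lig3, Mutyh and Tdp2 each lost theirs without either control or either combination library, Mutyh also without romidepsin 1 and Tdp2 also without either romidepsin library. Lig1, Mpg, Bard1, Rbbp8, Rad54b, Eme1, Fancg and Dntt lost their calls without either control or either combination library (adjusted p 0.0574 to 0.193 by edgeR). Dclre1c lost its call without control 1, control 2 or combination 1 (adjusted p 0.0501 to 0.0675 by edgeR).

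Few genes of the dividing cell were called, by small amounts. Of the replication genes 7 of 40 fell (17.5%, against 7.28% of all tested genes and 14.7% of those in the highest of 4 bins by level), of the mitosis genes 5 of 32 (15.6%), and of the checkpoint genes 3 of 20 (15%), with median log2 changes of -0.12, -0.18 and -0.19. The lowest counts with 1 library left out were 1, 0 and 0, all without control 1. With other scalings or limma on FPKM the falls numbered as few as 2, 3 and 0, with medians up to -0.01, -0.07 and -0.08. Pold2, encoding a subunit of DNA polymerase delta, lay at 139 and 137 CPM in the controls and 79.6 and 87.5 CPM in the combination (log2 -0.72 ± 0.09, adjusted p 0.00257, edgeR). Ccna2, encoding cyclin A2, lay at 188 and 168 CPM in the controls and 132 and 128 CPM in the combination (log2 -0.45 ± 0.09, adjusted p 0.0142), and Plk1, a mitotic kinase gene, at 199 and 196 CPM in the controls and 148 and 155 CPM in the combination (log2 -0.38 ± 0.08). Pold3 (-0.41 ± 0.08), the helicase subunit gene Mcm5 (-0.31 ± 0.08), Cdc20 (-0.48 ± 0.10), the phosphatase gene Cdc25c (-0.39 ± 0.10) and Hus1 (-0.53 ± 0.15) were also called. Mki67, encoding the proliferation antigen Ki-67, lay at 1179 and 1206 CPM in the controls and 983 and 890.5 CPM in the combination, separated groups that did not pass (log2 -0.35 ± 0.11, adjusted p 0.0725). Pold2 kept its call with each library left out in turn. Pold3, Mcm5, Cdc20 and Plk1 lost their calls without either control or either combination library (adjusted p 0.0713 to 0.147 by edgeR). Ccna2 lost its call without control 1, combination 1 or combination 2 (adjusted p 0.0651 to 0.11 by edgeR). Cdc25c and Hus1 lost their calls without any 1 control, romidepsin or combination library (adjusted p 0.0509 to 0.235 by edgeR).

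Several histone genes fell. Of a list of linker, variant and some cluster histone genes, 7 of 12 tested members fell (58.3%, against 7.28% of all tested genes), with a median of -0.86 and a lowest count of 0 without control 1 when 1 library was left out. H1f0, encoding the linker histone H1.0, lay at 269 and 248 CPM in the controls and 131 and 124 CPM in the combination (log2 -1.02 ± 0.16, adjusted p 0.00653, edgeR), both combination libraries far below both controls. The others that fell were H2afx, H2afz, H3f3b and the cluster genes Hist2h2be, Hist3h2a and Hist3h2ba. The libraries were made with an mRNA kit, and what part of the RNA of such histone genes it captured was not tested. H3f3b, encoding histone H3.3, lay at 922 and 759 CPM in the controls and 486 and 467 CPM in the combination (log2 -0.82 ± 0.12), and H2afx, encoding the H2A.X that is phosphorylated at breaks, at 91.1 and 80.6 CPM in the controls and 50.6 and 41.4 CPM in the combination (log2 -0.90 ± 0.25). Hist3h2a and Hist3h2ba fell from low levels, Hist3h2a with 0.889 and 0.764 CPM in the controls and 0.12 and 0.228 CPM in the combination. Of the genes often induced by HDAC inhibitors, 3 of 20 rose and 2 fell, with a median of 0.21. These are 15% and 10% of the list, against 10.2% and 7.28% of all tested genes. Txnip, encoding an inhibitor of thioredoxin, lay at 134 and 168 CPM in the controls and 298 and 329 CPM in the combination (log2 1.05 ± 0.14, adjusted p 0.00414). Syt11, a synaptotagmin gene, rose by 1.67 ± 0.24 and Cdkn1a is the third. H1f0 and the metallothionein gene Mt2 (-0.46 ± 0.13), both on that list, fell. Of the acetyltransferase and bromodomain genes 4 of 23 fell (17.4%, against 7.28% of all tested genes), with a median of -0.17. Among them were Brd1 (-0.44 ± 0.08), Brd7 (-0.40 ± 0.08) and Brd8 (-0.66 ± 0.11). Txnip and Syt11 kept their calls with each library left out in turn. H1f0 and H3f3b lost their calls without control 1 or combination 2 (adjusted p 0.0518 to 0.057 by edgeR). H2afx and Mt2 lost their calls without any 1 control, romidepsin or combination library (adjusted p 0.053 to 0.241 by edgeR). Hist3h2a and Brd7 lost their calls without either control or either combination library (adjusted p 0.0677 to 0.114 by edgeR). Brd1 lost its call without control 1, control 2 or combination 2 (adjusted p 0.0779 to 0.0866 by edgeR). Brd8 lost its call without control 1 or combination 1 (adjusted p 0.0537 to 0.0644 by edgeR).

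T-cell genes changed in both directions. Tcf7, encoding the T-lineage factor TCF-1, lay at 1738 and 1739 CPM in the controls and 719.9 and 825 CPM in the combination (log2 -1.17 ± 0.09, adjusted p 0.000531, edgeR), the controls nearly equal and both combination libraries far lower. Ikzf1, encoding Ikaros, lay at 538 and 579 CPM in the controls and 233 and 281 CPM in the combination (log2 -1.12 ± 0.17, adjusted p 0.00612), and Gata3 fell by 0.75 on the log2 scale. Prdm1, encoding BLIMP-1, rose by 1.10 ± 0.20, E2f2 by 0.71 ± 0.15 and Tbx21, encoding T-bet, by 0.43 ± 0.10. In all, 4 of 24 lineage factors rose and 4 fell, 16.7% each, against 10.2% and 7.28% of all tested genes. Of the receptor complex and its signalling, 3 of 26 rose and 2 fell, shares of 11.5% and 7.69% close to those of all genes. Cd4, at 1.86 and 1.56 CPM in the controls and 6.41 and 8.23 CPM in the combination, and Cd7, at 1.89 and 1.33 CPM in the controls and 5.38 and 5.30 CPM in the combination, rose from low levels, and Cd6 rose by 0.55 ± 0.12. Cd3d (-0.41 ± 0.10) and Thy1 (-0.29 ± 0.07) fell slightly from high levels. They were the 2 falls among the 12 T-cell markers (16.7%, against 7.28% of all tested genes). Of the genes of T-cell costimulation and inhibition, a list that also holds the ligand gene Cd80 and the cytokine receptor gene Il2rb, 6 of 21 rose (28.6%, against 10.2% of all tested genes) and 1 fell, with a median of 0.54. The lowest count of rises with 1 library left out was 3 without control 1. Besides Cd80 these were Icos (2.18 ± 0.34), Il2rb (1.14 ± 0.11), Btla, Cd244 and Tnfrsf18, and Cd96 fell (-0.59 ± 0.14). Il2rb, encoding the beta chain of the IL-2 receptor, lay at 25.3 and 26.8 CPM in the controls and 61.1 and 53.7 CPM in the combination. Tcf7, Icos and Il2rb kept their calls with each library left out in turn. Btla, Cd244 and Tnfrsf18 each lost theirs without either control or either combination library, and Btla also without either romidepsin library. Ikzf1 lost its call without combination 1 (adjusted p 0.0518 by edgeR). Gata3, Prdm1, E2f2, Tbx21, Cd6, Cd3d and Cd96 lost their calls without either control or either combination library (adjusted p 0.0582 to 0.193 by edgeR). Cd4 lost its call without control 1 or control 2 (adjusted p 0.0517 to 0.0518 by edgeR). Cd7 lost its call without control 2 (adjusted p 0.0517 by edgeR). Thy1 lost its call without any 1 control, romidepsin or combination library (adjusted p 0.0582 to 0.182 by edgeR). Over those 8 fits the log2 value of Icos ran from 1.71 to 2.79.

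Of 22 genes of the Notch pathway, which directs T-cell development, the receptor genes Notch1 and Notch3 rose (9.09%, against 10.2% of all tested genes). Notch1 lay at 39.7 and 38.6 CPM in the controls and 95.1 and 75.7 CPM in the combination (log2 1.12 ± 0.15, adjusted p 0.00401, edgeR) and Notch3 at 43.5 and 45.7 CPM in the controls and 131 and 105 CPM in the combination (log2 1.40 ± 0.17, adjusted p 0.00257). Both groups were apart in both genes, while the other 20 members were not called, with a list median of 0.36. Of 27 cytokine receptor and JAK-STAT genes, 3 rose and 2 fell (11.1% and 7.41%, against 10.2% and 7.28% of all tested genes). Il6ra (2.66 ± 0.50) and Il4ra (1.29 ± 0.27) rose from low levels and the inhibitor gene Socs1 by 0.47 ± 0.11, and Stat5a (-0.52 ± 0.12) and Stat6 (-0.43 ± 0.10) fell. Of 23 genes of the NF-kB pathway and its targets, 4 rose (17.4%, against 10.2% of all tested genes). They were the inhibitor gene Nfkbie (1.0 ± 0.16), the cytokine genes Csf2 (0.82 ± 0.19) and Tnf, and the adhesion gene Icam1 (0.31 ± 0.09). Notch1 and Notch3 kept their calls with each library left out in turn. Tnf lost its call without any 1 control, romidepsin or combination library. Il6ra lost its call without control 1 or combination 1 (adjusted p 0.0708 to 0.0962 by edgeR). Il4ra, Socs1, Stat5a, Stat6 and Csf2 lost their calls without either control or either combination library (adjusted p 0.0709 to 0.173 by edgeR). Nfkbie lost its call without control 1, control 2 or combination 2 (adjusted p 0.0542 to 0.068 by edgeR). Icam1 lost its call without any 1 control, romidepsin or combination library (adjusted p 0.0621 to 0.245 by edgeR). Over those 8 fits the log2 value of Il6ra ran from 2.16 to 3.30.

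**Figure D3:**
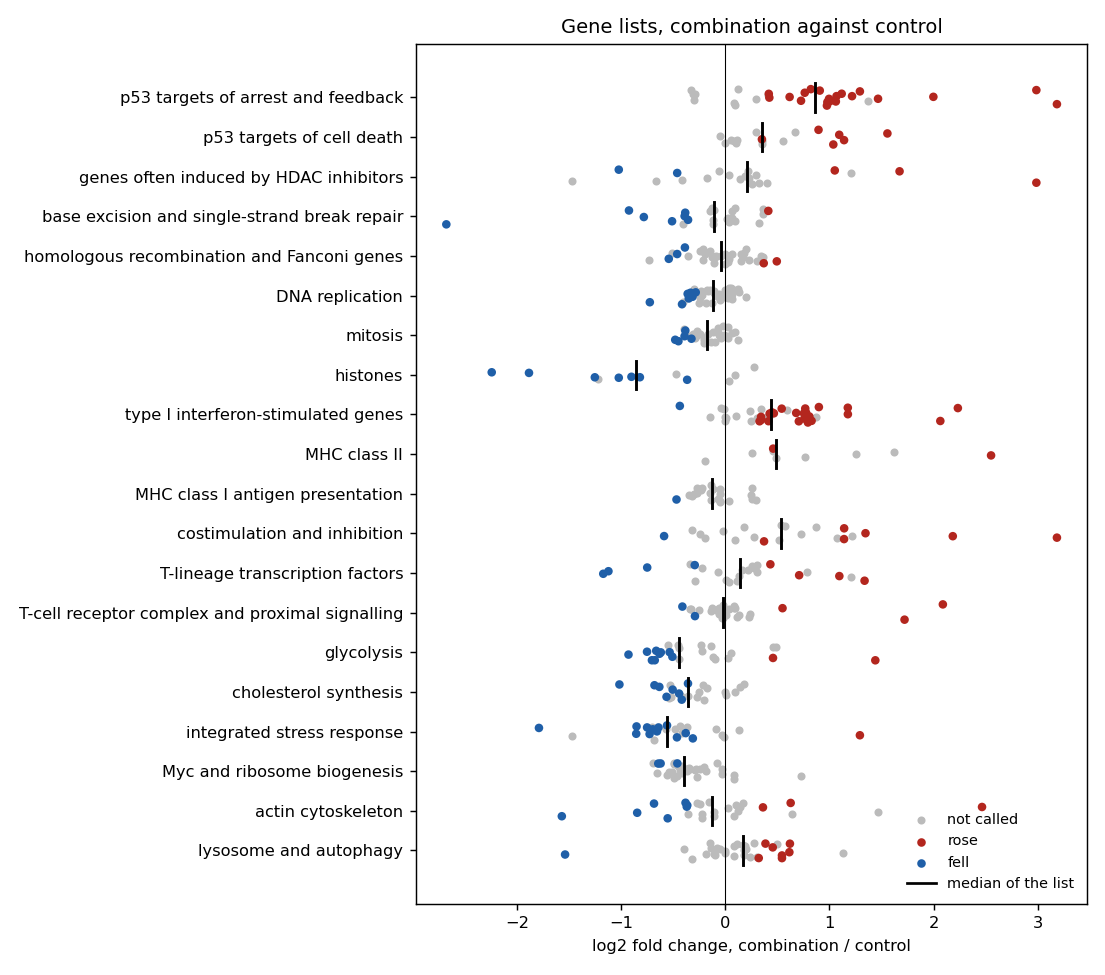
Each point is a tested member of 1 of 20 gene lists, placed by its log2 ratio of combination to control, red where it rose, blue where it fell and grey where it was not called, with a black bar at the list's median. The p53 (median 0.86) and interferon lists (0.44) lie to the right, and the histone (-0.86), stress response (-0.56) and glycolysis lists (-0.45) to the left.

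In the integrated stress response, through which ATF4 raises amino acid synthesis and transport, 12 of 25 members fell (48%, against 7.28% of all tested genes) and 1 rose, with a median of -0.56 and a lowest count of 5 without control 1 when 1 library was left out. Mthfd2, of mitochondrial folate metabolism, lay at 195 and 178 CPM in the controls and 103 and 104 CPM in the combination (log2 -0.85 ± 0.11, adjusted p 0.00325, edgeR). Psat1, of serine synthesis, lay at 448 and 437 CPM in the controls and 277 and 269.6 CPM in the combination (log2 -0.70 ± 0.09), and Aldh18a1, of proline synthesis, at 256 and 259 CPM in the controls and 161 and 167 CPM in the combination (log2 -0.65 ± 0.08). Atf4, Asns, Cebpg, Ddit4, Phgdh, Psph, Shmt2, Slc7a5 and Trib3 also fell. Sesn2, the member that rose, is also a p53 target and lay at 36.7 and 35 CPM in the controls and 87.1 and 88.7 CPM in the combination (log2 1.29 ± 0.16). The amino acid response element, searched on both strands as TGATG, any base and AAT, was found in the promoters of 48 of 9536 tested genes (0.503%) and of 2 of 23 list members, neither of them among the falls. Mthfd2, Psat1, Aldh18a1, Sesn2, Asns and Atf4 kept their calls with each library left out in turn. Cebpg, Ddit4, Psph and Slc7a5 each lost theirs without either control or either combination library, and Slc7a5 also without either romidepsin library. Phgdh and Shmt2 lost theirs without control 1, control 2 or combination 1. Trib3 lost its call without either control or either combination library (adjusted p 0.0832 to 0.186 by edgeR).

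Of the glycolysis genes 9 of 24 fell (37.5%, against 7.28% of all tested genes and 14.7% of those in the highest of 4 bins by level) and 2 rose, with a median of -0.45, and the lowest count of falls with 1 library left out was 1 without control 1. Without a scaling factor or with limma on FPKM the falls numbered as few as 3. Slc2a3, encoding the glucose transporter GLUT3, lay at 1554 and 1448 CPM in the controls and 933 and 911 CPM in the combination (log2 -0.70 ± 0.09, adjusted p 0.00375, edgeR). Pfkp, encoding a phosphofructokinase, lay at 1161 and 1131 CPM in the controls and 601 and 604 CPM in the combination (log2 -0.93 ± 0.15, adjusted p 0.00792). Under the conditions set for the 12 largest falls, the 6 largest losses in mean FPKM held 4 of these genes. They were Gapdh (-0.66 ± 0.19), Eno1 (-0.63 ± 0.18), Ldha (-0.62 ± 0.13) and Pgk1 (-0.75 ± 0.20). Beside them stood Mt2 and Ptma (-0.47 ± 0.08), the second encoding prothymosin alpha. Gapdh lay at 5362 and 4063 CPM in the controls and 3016 and 2940.2 CPM in the combination, so that control 1 was well above control 2. Gapdh and Eno1 have many processed pseudogenes, and reads may be split among them. Aldoc (1.44 ± 0.38) and Ldhb (0.46 ± 0.09) rose. Slc2a3 kept its call with each library left out in turn. Pfkp lost its call without control 1, combination 1 or combination 2 (adjusted p 0.0564 to 0.0608 by edgeR). Gapdh, Eno1, Pgk1 and Aldoc lost their calls without any 1 control, romidepsin or combination library (adjusted p 0.0549 to 0.253 by edgeR). Ldha and Ldhb lost their calls without either control or either combination library (adjusted p 0.0607 to 0.119 by edgeR). Ptma lost its call without control 1, control 2 or combination 1 (adjusted p 0.0561 to 0.0707 by edgeR).

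Of the genes of cholesterol synthesis 8 of 23 fell (34.8%, against 7.28% of all tested genes), with a median of -0.36 and a lowest count of 1 without control 1 when 1 library was left out. Insig1, encoding the sterol sensor that holds SREBP in the endoplasmic reticulum, lay at 186 and 177 CPM in the controls and 101 and 78.4 CPM in the combination (log2 -1.01 ± 0.14, adjusted p 0.00467, edgeR). Hmgcs1, of the first steps of the pathway, lay at 485 and 518 CPM in the controls and 339 and 308 CPM in the combination (log2 -0.63 ± 0.13), and Lss, encoding lanosterol synthase, fell by 0.56 on the log2 scale. Myc lay at 118 and 134 CPM in the controls and 72.4 and 91.6 CPM in the combination (log2 -0.62 ± 0.15, adjusted p 0.0265, edgeR). Of the 32 genes of Myc and ribosome biogenesis Myc, Ncl (-0.64 ± 0.14) and Npm1 (-0.46 ± 0.09) fell. This share of 9.38% was close to the 7.28% of all tested genes. The other 29 were not called. Of the 32 values 29 lay below 0, with a median of -0.39, against a median of 0.00 over all tested genes. Insig1 kept its call with each library left out in turn. Hmgcs1, Lss, Ncl and Npm1 lost their calls without either control or either combination library (adjusted p 0.0517 to 0.118 by edgeR). Myc lost its call without control 1, control 2 or combination 1 (adjusted p 0.0827 to 0.138 by edgeR).

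Other stress genes showed few calls. Of 22 genes of the unfolded protein response, Eif2ak3, encoding the kinase PERK, rose (0.50 ± 0.10) and Hsp90b1 fell (-0.53 ± 0.12). Each is 4.55% of the list, against 10.2% rises and 7.28% falls of all tested genes. Of 17 heat shock genes, the small heat shock gene Cryab rose from a low level (1.22 ± 0.26), and Hspa9 (-0.67 ± 0.09), Hspd1 (-0.55 ± 0.15) and Hsp90ab1 (-0.29 ± 0.08) fell. The shares were 5.88% and 17.6%, against 10.2% and 7.28% of all tested genes. The targets of the oxidative stress factor NRF2 held 3 rises and 1 fall among 18. These are 16.7% and 5.56%, against 10.2% and 7.28% of all tested genes. The gene of NRF2 itself, Nfe2l2, rose by 0.48 ± 0.09, Nqo1 by 0.90 ± 0.15 and Gstm1 by 1.47 ± 0.21. Tkt fell (-0.32 ± 0.07). Abcb1b, encoding a P-glycoprotein that exports drugs, romidepsin among them, lay at 93.2 and 101 CPM in the controls and 264 and 249 CPM in the combination (log2 1.40 ± 0.10, adjusted p 0.000445, edgeR). Its neighbour Abcb1a lay at 0.350 and 0.232 CPM in the controls and 1.08 and 5.14 CPM in the combination, too uneven to pass (log2 3.37 ± 1.07, adjusted p 0.0654). These 2 genes are similar in sequence, so reads can be split between them. Abcc5 also rose (0.84 ± 0.23), which makes 2 of 8 ABC transporter genes (25%, against 10.2% of all tested genes). Hspa9 and Abcb1b kept their calls with each library left out in turn. Eif2ak3, Hsp90b1, Cryab, Hspd1 and Tkt lost their calls without either control or either combination library (adjusted p 0.0556 to 0.187 by edgeR). Hsp90ab1 and Abcc5 lost their calls without any 1 control, romidepsin or combination library (adjusted p 0.0567 to 0.214 by edgeR). Nfe2l2 and Nqo1 lost their calls without control 1, control 2 or combination 2 (adjusted p 0.0541 to 0.103 by edgeR). Gstm1 lost its call without control 1 (adjusted p 0.0518 by edgeR).

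Of the actin cytoskeleton genes 7 of 26 fell (26.9%, against 7.28% of all tested genes and 14.7% of those in the highest of 4 bins by level) and 3 rose, with a median of -0.13. Actb, Actg1, Acta2, Cfl1, Coro1a, Lcp1 and Pfn1 fell, and the lowest count with 1 library left out was 1 without control 2. With other scalings or limma on FPKM the falls numbered as few as 3, with a median up to -0.03. Acta2 lay at 170.2 and 178 CPM in the controls and 88.9 and 105 CPM in the combination (log2 -0.84 ± 0.10, adjusted p 0.00293, edgeR), and Lcp1, encoding the actin bundler of leukocytes, at 989 and 1061 CPM in the controls and 681 and 718 CPM in the combination (log2 -0.55 ± 0.09). Des, Marcksl1 (0.63 ± 0.10) and Actn1 (0.36 ± 0.10) rose. Of the genes of lysosome and autophagy 7 of 32 rose (21.9%, against 10.2% of all tested genes) and 1 fell, Fam134c, with a lowest count of rises of 1 without control 1. Ctsd, encoding the protease cathepsin D, lay at 174 and 158 CPM in the controls and 249.5 and 259 CPM in the combination (log2 0.62 ± 0.08, adjusted p 0.00411). Neu1, a sialidase gene, rose by 0.54 ± 0.09. Of 8 tested neuronal and germ-cell genes, Uchl1 rose (0.39 ± 0.09) and Nefh fell (-0.52 ± 0.14), 12.5% each, against 10.2% and 7.28% of all tested genes. Acta2 and Ctsd kept their calls with each library left out in turn. Actb, Cfl1, Coro1a and Pfn1 each lost theirs without either control or either combination library, and Cfl1 also without romidepsin 2. Lcp1 lost its call without control 2 or combination 1 (adjusted p 0.0541 to 0.0561 by edgeR). Marcksl1 lost its call without control 2 or combination 2 (adjusted p 0.057 to 0.0709 by edgeR). Actn1 lost its call without any 1 control, romidepsin or combination library (adjusted p 0.0647 to 0.236 by edgeR). Neu1 and Uchl1 lost their calls without control 1, control 2 or combination 2 (adjusted p 0.0555 to 0.128 by edgeR). Nefh lost its call without either control or either combination library (adjusted p 0.0687 to 0.182 by edgeR).

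Myeloid and B-cell markers were measured at low levels, and 2 of the 3 tested in each list rose. Of 12 myeloid markers 3 were tested, with a summed level of 15.0 to 17.3 CPM in the controls and 49.3 to 52.2 CPM in the combination. Lyz2, encoding lysozyme, lay at 3.61 and 3.55 CPM in the controls and 14.7 and 13.1 CPM in the combination (log2 1.96 ± 0.14, adjusted p 0.000445, edgeR), and Itgam at 3.53 and 5.02 CPM in the controls and 21.8 and 22 CPM in the combination (log2 2.36 ± 0.19). Of 8 B-cell markers 3 were tested, with a summed level of 51.8 to 63.5 CPM in the controls and 75.4 to 79.3 CPM in the combination. Cd79b, of the B-cell receptor, lay at 4.15 and 4.55 CPM in the controls and 9.84 and 12.3 CPM in the combination (log2 1.35 ± 0.17), and Ebf1 rose by 0.66 ± 0.13. The defining markers Ms4a1, Cd79a and Pax5 of B cells, and Csf1r, Adgre1, Cd14 and Mpo of myeloid cells, were not analysed here. Of 10 fibroblast markers 5 were tested, summing to 1441 to 1481 CPM in the controls and 1210.3 to 1246 CPM in the combination. Pdgfra (1.19 ± 0.15) and Pdgfrb (0.97 ± 0.21) rose, and Acta2 and Thy1 fell. Of 7 erythroid markers 3 were tested, and Tfrc, the transferrin receptor gene that all dividing cells use, fell from 742 and 722 CPM in the controls to 456 and 399 CPM in the combination (log2 -0.77 ± 0.15). These markers moved in the same libraries as the interferon, MHC class II and costimulation genes, and their part in those results was not tested. Lyz2, Cd79b and Pdgfra kept their calls with each library left out in turn. Ebf1, Pdgfrb and Tfrc lost their calls without either control or either combination library (adjusted p 0.0518 to 0.116 by edgeR).

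Direction went with expression level. With the tested genes split by mean CPM into 4 bins of 2983 or 2984 genes, 16.5% rose and 0.905% fell in the lowest bin (0.185 to 9.84 CPM). In the highest bin (83.2 to 10406 CPM), 5.53% rose and 14.7% fell. The bins between them held 10.8% rises and 5.26% falls, then 8.11% rises and 8.28% falls. The lists that rose and fell also differed in level, so the shares of all genes given above are not matched to them on it.

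**Figure D4:**
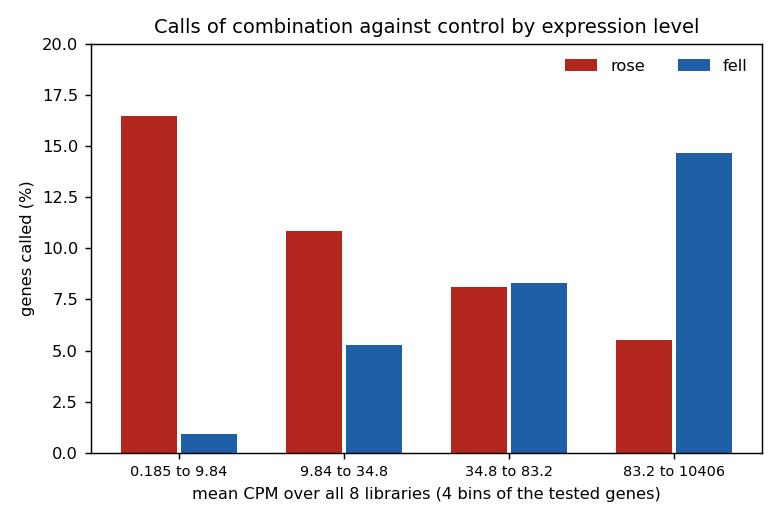
Bars give the percent of tested genes that rose (red) or fell (blue) in the combination against control, in 4 bins of mean CPM over all 8 libraries. Rises go from 16.5% in the lowest bin to 5.53% in the highest, and falls from 0.905% to 14.7%.

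Set against the single drugs, the combination stood close to talazoparib in the number of called differences. Against talazoparib 3 genes were called (0.0251% of those tested, with 510 at an unadjusted p under 0.05), and against romidepsin 1397 (11.7%), of which 836 rose (7.01%) and 561 fell (4.7%). Against control, talazoparib changed 1321 genes (11.1%) and romidepsin 3 (0.0251%). These comparisons share libraries with each other. The 3 genes called against talazoparib were Rapgef3, which rose, and Mdm4 and Fam134c, which fell. DESeq2's Wald test called 26 genes there. For Cdkn1a the difference from talazoparib was 0.22 ± 0.12, with a 95% interval of -0.07 to 0.51, and for Mdm2 it was -0.03 ± 0.11, with an interval of -0.28 to 0.22. A difference that did not pass does not show that the 2 treatments acted alike, since these intervals reached a median of 0.31 to either side.

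Mdm4, encoding the relative of MDM2 that binds and inhibits p53, showed the largest called difference. It lay at 32.2 and 47.4 CPM in the controls, 171 and 155 CPM with romidepsin, 254 and 259 CPM with talazoparib and 46.7 and 37.4 CPM in the combination. The single drugs were each above every control and combination library, and the combination overlapped the control (log2 0.08 ± 0.18, adjusted p 0.784, edgeR). Against talazoparib Mdm4 fell by 2.61 on the log2 scale (adjusted p 0.00352). The departure from additivity, the combination's change less the sum of those of both drugs, was -4.64 ± 0.26 (adjusted p 0.00105). It was called for 2 genes (0.0168% of those tested, with 154 at an unadjusted p under 0.05). Mean FPKM, which accounts for transcript length, was 5.26 in the control, 21.5 with romidepsin, 36.1 with talazoparib and 5.96 in the combination. The departure kept its call with each library left out in turn, whereas the difference from talazoparib lost its call without combination 2 (adjusted p 0.0623). The sign of the Mdm4 value against control turned without control 1 and without combination 1.

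Fam134c was the other gene with a departure from additivity, of -1.79 ± 0.16 (adjusted p 0.0159, edgeR). It lay at 88.7 and 88.0 CPM in the controls, 86.7 and 98.7 CPM with romidepsin, 103 and 97.9 CPM with talazoparib and 33.1 and 27.7 CPM in the combination. Its combination libraries were below all 6 others, and against talazoparib it fell by 1.72 on the log2 scale (adjusted p 0.00346). Without combination 2 that difference had an adjusted p of 0.0511. The departure lost its call without either control, romidepsin 2 or combination 2 (adjusted p 0.0808 to 0.143). Rapgef3, encoding the cAMP-activated exchange factor EPAC1, lay at 39.99 and 41.6 CPM in the controls, 39.2 and 42.8 CPM with romidepsin, 29.4 and 29.1 CPM with talazoparib and 51.9 and 54.0 CPM in the combination, so that the combination was the highest group and talazoparib the lowest. Against talazoparib it rose by 0.86 ± 0.09 (adjusted p 0.0489), a call that 16 of 19 alternatives lost, among them each fit without 1 library (adjusted p 0.0503 to 0.334). Its change against control was 0.38 ± 0.09. Rapgef3 lost its call without either control or either combination library (adjusted p 0.087 to 0.184 by edgeR). Cd74 lay at 17.1 and 12.7 CPM in the controls, 25.4 and 28.5 CPM with romidepsin, 37.7 and 34.3 CPM with talazoparib and 81.9 and 92.9 CPM in the combination. Its combination libraries were the highest of all, and the difference from talazoparib was 1.28 ± 0.15 (adjusted p 0.0657), not called. Ankrd49 was lowest in the combination, with a difference from talazoparib of -1.60 ± 0.19 (adjusted p 0.0657), not called.

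**Figure D5:**
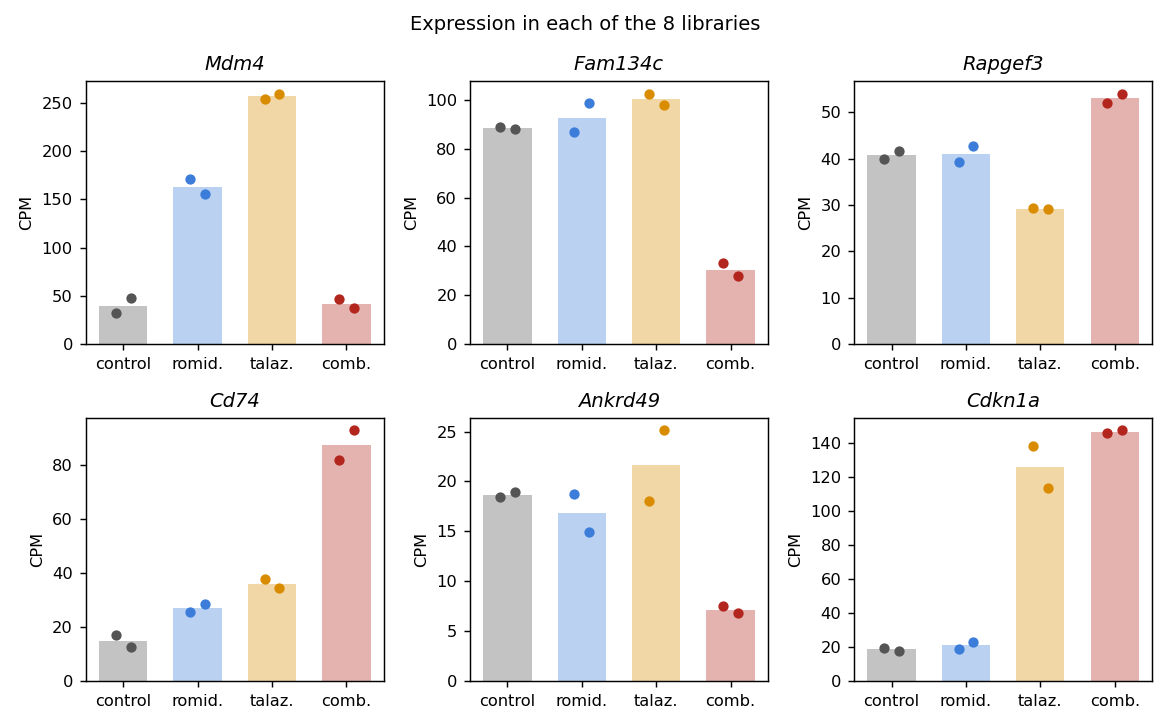
Bars are the mean CPM of the 2 libraries in each group and points are the single libraries, for 6 genes, with axes from 0. Mdm4 is high with each single drug (155 to 259 CPM) and low in the control and the combination, Fam134c is low in the combination alone, and Cdkn1a is high with talazoparib and with the combination.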

How the data were processed

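Messenger RNA of MBL2 cells was sequenced in 8 libraries, 2 per group, grouped by sample title. Per the labels' protocols, the library kit was TruSeq Stranded mRNA. Reads were aligned to mm10 with HISAT2 and quantified with StringTie, per the submitters' processing notes, with strand use and versions not stated. The authors deposited raw read counts per gene as whole numbers, per the file headers. The FPKM values beside them were also computed and deposited by the authors.

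Counts were filtered with filterByExpr (11934 of 12260 genes kept), given TMM factors of 0.954 to 1.04 and modelled in edgeR 4.0.16 (R 4.3.3) with 1 term per group over all 8 libraries, so that every group shares 1 spread (4 residual degrees of freedom, biological coefficient of variation 12.9%). The quasi-likelihood test was checked on simulated counts. Totals of 28419156 to 38913292 reads leave a median log2 standard error of 0.14. Gene IDs of 12237 genes were matched to the reference for coordinates. Promoters are from RefSeq tables of GRCm38.p6.

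The members and the 41 gene lists were chosen with earlier results of these data known. Named genes are the 12 largest called rises and falls whose libraries do not overlap and whose higher group averages at least 2 FPKM. Under the same conditions, the 6 largest gains and losses in FPKM are also named. The rule adds the 6 largest in each direction against all 3 other groups, the 4 largest departures from additivity in each direction, up to 3 called members per list and direction with the smallest p, and 13 fixed genes. Models with clone-type names were not named. Alternatives were other scalings, filters and dispersion settings, DESeq2 1.42.0, limma 3.58.1 on log2(FPKM + 1) and log2(FPKM + 0.1), a replicate block, fits of the compared groups only and fits without each library. A fit without 1 library assumes that the lone library left in its group varies like the others. Some genes of these lists, counted in them, are not reported here by name.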

Additional observations from a re-analysis of the deposited data

Results flagged for a closer look

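The interaction of both drugs passed for 2 genes, which means that the change in the combination differed from the sum of the changes with each drug. For Mdm4 the departure was -4.64 on the log2 scale (edgeR adjusted p 0.00105), and over all alternatives it ran from -4.94 to -4.29 with an adjusted p of at most 0.0226. Both libraries of each single drug were above all control and combination libraries. For Fam134c the departure was -1.79 (adjusted p 0.0159), and the highest adjusted p among the alternatives was 0.143, without control 1. Its 2 combination libraries were below the other 6. The counts come from 1 table of gene totals, and what part the counting had in these patterns was not tested.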

How the results depend on the processing

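Leaving out 1 library at a time gave 305 to 2700 called genes against control (2091 in all 8), 0 to 9 against talazoparib (3), 156 to 1990 against romidepsin (1397) and 1 to 8 for the departure from additivity (2). The 0 calls came from edgeR without combination 2, with 261 genes at an unadjusted p under 0.05. DESeq2's Wald test called 26 genes against talazoparib and 7 for the departure, and robust dispersion called 5 against talazoparib. Deviations of same-numbered libraries had correlations from -0.33 (romidepsin and talazoparib) to 0.29 (control and talazoparib), and 0.08 for control and combination. Whether libraries of different groups shared a batch was not tested. With the replicate block 1603 genes were called against control, 2 against talazoparib, 965 against romidepsin and 1 for the departure. Fits of the compared groups only called 3068 against control. Without scaling 83.1% of the calls against romidepsin were rises, with upper-quartile scaling 72.3%, and 59.8% with TMM. With limma on log2(FPKM + 1) 79.6% of the calls against control were rises. Hdac3 reversed to 0.046 without scaling, 0.044 with limma on log2(FPKM + 1) and 0.044 on log2(FPKM + 0.1), and Mdm4 ran from -0.18 to 0.38 with 1 library left out. Of 172 called genes among those that the naming rule took or the text names, 53 kept call and direction under all 19 alternatives and 119 lost the call in at least 1, none reversing. Of 8 named genes without a call, Abcb1a and Mki67 were called in some. With 2 libraries a group, low genes have wide errors, and the cause of the differences between alternatives was not tested.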

Other observations

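Some genes had discordant libraries within a group. Among genes with a mean of at least 10 CPM in the group, 9 of 8813 differed over 4-fold between the controls and 7 of 8985 between the combination libraries. Rps27, chosen after its values were seen, was at 6.90 and 545 CPM in control 1 and 2, 7.13 and 664 CPM in romidepsin 1 and 2, and 5.87 to 6.24 CPM in the other 4 libraries. Its retrogene copy Rps27rt was at 679 and 42.9 CPM in the controls and 725 and 688 CPM in the combination, high where Rps27 was low. Their summed level was 686 and 587 CPM in the controls and 731 and 694 CPM in the combination. The fitted change of Rps27 was -5.51 (edgeR adjusted p 0.118), not called. Tmem254a, also chosen after its values were seen, was at 3.53 and 4.09 CPM in the controls and at 0.0602 to 0.434 CPM in the other 6 libraries. The fitted change of Tmem254a was -5.07 (edgeR adjusted p 0.000715), a called fall from a low level. It was larger than that of Tdg (-2.68), the first of the ranked largest falls, and Tmem254a is not in that ranking. Whether Tmem254a kept its call under the alternatives is not reported here.

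Genes on chromosome X held 20 rises (5.76%) and 40 falls (11.5%) among 347 tested. Of 446 long non-coding RNA genes 39 rose (8.74%) and 10 fell (2.24%), against 10.2% and 7.28% of all tested genes. The share of counts on Rn45s, the ribosomal RNA precursor gene, was 0.172% to 0.183% in the combination and 0.135% to 0.173% in the controls, and 0.394% and 0.520% with talazoparib alone and 0.139% and 0.235% with romidepsin alone.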
